A study of Mus musculus with 1 sample.

Results

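The cells described here were chosen by their summed RNA of Ndrg1 and Ly6m, and they numbered 205 of the 1892 cells kept from 1 library of mouse gastric organoids, or 10.8% (95% exact binomial interval 9.47% to 12.3%). Barcodes counted as cells had 500 or more detected genes, and no more than 20% of their unique molecular identifiers (UMIs, which count captured RNA molecules) came from the mitochondrial genome. For 8 small gene sets, the summed UMIs per 10000 gene UMIs of the cell were put on a natural log scale after adding 1 and expressed as z, the distance from the mean over cells in standard deviations. Members were the cells whose highest z was that of Ndrg1 and Ly6m and was at least 1. The other 7 sets were Scgb3a1 and Cyp2f2, Mt1 and Mt2, Cxcl2 and Cxcl5, Psca and Prss22, Cyba with Gsta1 and Gsta2, 4 mitotic genes, and 4 genes of DNA replication (Mcm3, Mcm5, Mcm6 and Pcna). Members were set against the other 1687 kept cells, and against the 523 of these in which no set reached a z of 1.

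The organoids, balls of epithelium grown in gel, came from mouse stomach and carried the wild type genotype with no treatment. Trypsin-EDTA was used on day 7 to dissociate them. The mice, the number of cultures and the suspensions behind the multiplexing tags are not given in the labels, and the further genotypes named with the series were not analysed here. The matrix held 20236916 gene UMIs in 1991 barcodes. With 1 library there was no replicate, so no difference was tested and every interval below is a 95% interval for counting error only, which does not cover the clumping of a gene's UMIs in single cells.

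NDRG1 is a cytoplasmic protein whose gene is a classical target of the hypoxia-inducible factors (HIFs) and is also switched on as epithelial cells differentiate. HIFs are degraded when oxygen is plentiful, because prolyl hydroxylases mark them for destruction, and when stable they raise genes for glucose uptake, glycolysis, mitochondrial clearance, collagen hydroxylation and blood vessel growth. Ly6m encodes a member of the Ly6 family of small surface proteins anchored to the membrane by a lipid. Cnfn encodes cornifelin, a protein of the cornified envelope of stratified squamous epithelium, and was taken with these genes as a marker of the cells.

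On the GRCm38 assembly, Ndrg1 (ENSMUSG00000005125) lies on the reverse strand at chr15:66929318-66969640 and Ly6m (ENSMUSG00000063522) on the same chromosome and strand at chr15:74876987-74897021. Cnfn (ENSMUSG00000063651) lies on the reverse strand at chr7:25367620-25369724. All 3 are annotated as protein-coding by GENCODE release M21.

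Ndrg1 was found in 190 of the 205 members (92.7%) and in 21.2% of the other cells. Its level was 269 CPM in members (UMIs per 1000000 gene UMIs summed over the cells; 248 to 292) and 29.1 CPM in the other cells (26.7 to 31.7). Ly6m was found in 32.7% of members and 3.497% of the other cells, at 130.0 CPM (115 to 146) against 4.12 CPM (3.23 to 5.17). These values chose the cells and are a description only. The 2 genes were mostly not found in the same member: 138 members had Ndrg1 without Ly6m, 52 had both and 15 had Ly6m without Ndrg1. The members are therefore largely cells chosen on Ndrg1, with a smaller set that also or only held Ly6m.

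The score rests on few molecules. Members held a median of 2 Ndrg1 UMIs (at most 12) and a median of 0 Ly6m UMIs (at most 20). In 36 members (17.6%) a single UMI of the pair was enough, and none of these cells had more than 6764 gene UMIs. Among the other cells, 389 also held a UMI of the pair, with a median of 13614 gene UMIs. Of these, 104 reached a z of 1 but were higher in another set, and the rest stayed under the threshold. Member z ran from 1.003 through a median of 2.05 to 6.94. The 8 members with z below 1.1 had Ndrg1 at 150 CPM and no Ly6m UMI, and the 29 cells just outside the threshold, with z from 0.9, had Ndrg1 at 113 CPM and Ly6m at 24.5 CPM. Total depth over all members was like that of the other cells, with medians of 8998 and 8418 gene UMIs, 2266 and 2218 detected genes, and 3.93% and 4.09% mitochondrial UMIs.

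Cnfn, which the rule did not use, marked few of the members. It was found in 13 of 205 members (6.34%) and in 52 of the other cells (3.08%), at 16.4 CPM in members (11.4 to 22.8) and 6.73 CPM in the others, a ratio of 2.43 (1.62 to 3.57). One member held 14 of the 35 Cnfn UMIs. Without it the members were at 9.90 CPM (6.13 to 15.1) and the ratio was 1.47 (0.879 to 2.35). The ratio over all cells was 1.25 among those tagged CMO301 and 3.29 among those tagged CMO302, the pair of multiplexing tags in use. Members did not hold the highest level of Cnfn. It was 28.8 CPM (22.0 to 37.0) in the 188 cells chosen by Psca and Prss22, 16.4 CPM in members and 0 CPM in the 267 cells chosen by Scgb3a1 and Cyp2f2.

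**Figure D1:**
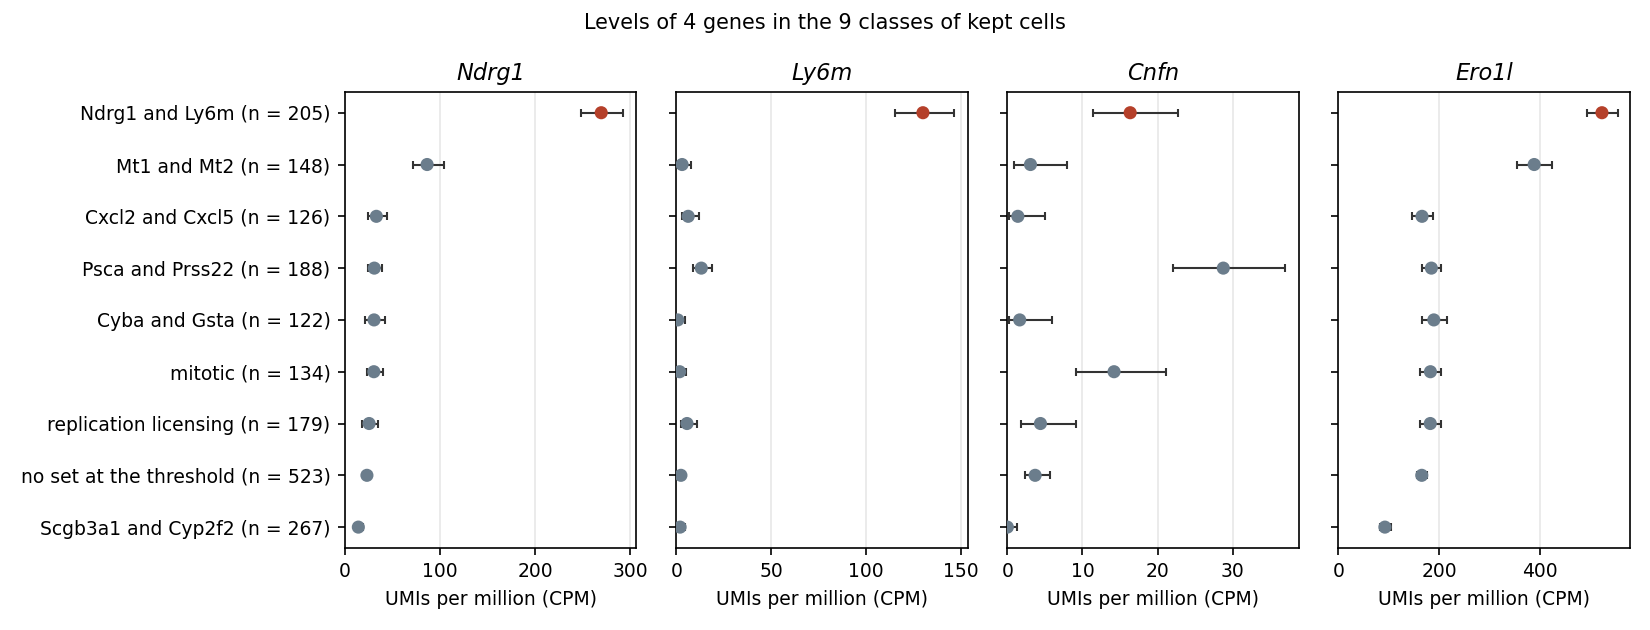
Levels of Ndrg1, Ly6m, Cnfn and Ero1l in CPM (horizontal axes) in each of the 9 classes of kept cells (rows, with the number of cells), with members in red and 95% Poisson intervals as bars. Ndrg1 and Ly6m chose the members and are highest there by construction, Cnfn is higher in the Psca and Prss22 class (28.8 CPM) than in members (16.4 CPM), and Ero1l, which no rule used, is highest in members (524 CPM) with the Mt1 and Mt2 class next (389 CPM).

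Over all kept cells, Cnfn went with Ly6m and not with Ndrg1. It was at 31.3 CPM (22.1 to 43.2) in the 79 cells with both genes and 24.8 CPM (12.4 to 44.4) in the 47 with Ly6m alone. It was at 5.22 CPM (3.60 to 7.34) in the 468 cells with Ndrg1 alone and 6.16 CPM (4.85 to 7.72) in the 1298 with neither. Cells with Ndrg1 alone thus had no more Cnfn than cells with neither gene. Cnfn was found in 12 of the 79, 6 of the 47, 16 of the 468 and 31 of the 1298 cells. Without the highest cell of each group its levels were 19.8, 15.97, 3.33 and 4.52 CPM in the same order. Hilpda, which encodes a lipid droplet protein that inhibits triglyceride breakdown, had a related order, at 125 CPM with both, 65.4 CPM with Ly6m alone, 49.2 CPM with Ndrg1 alone and 41.2 CPM with neither.

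**Figure D2:**
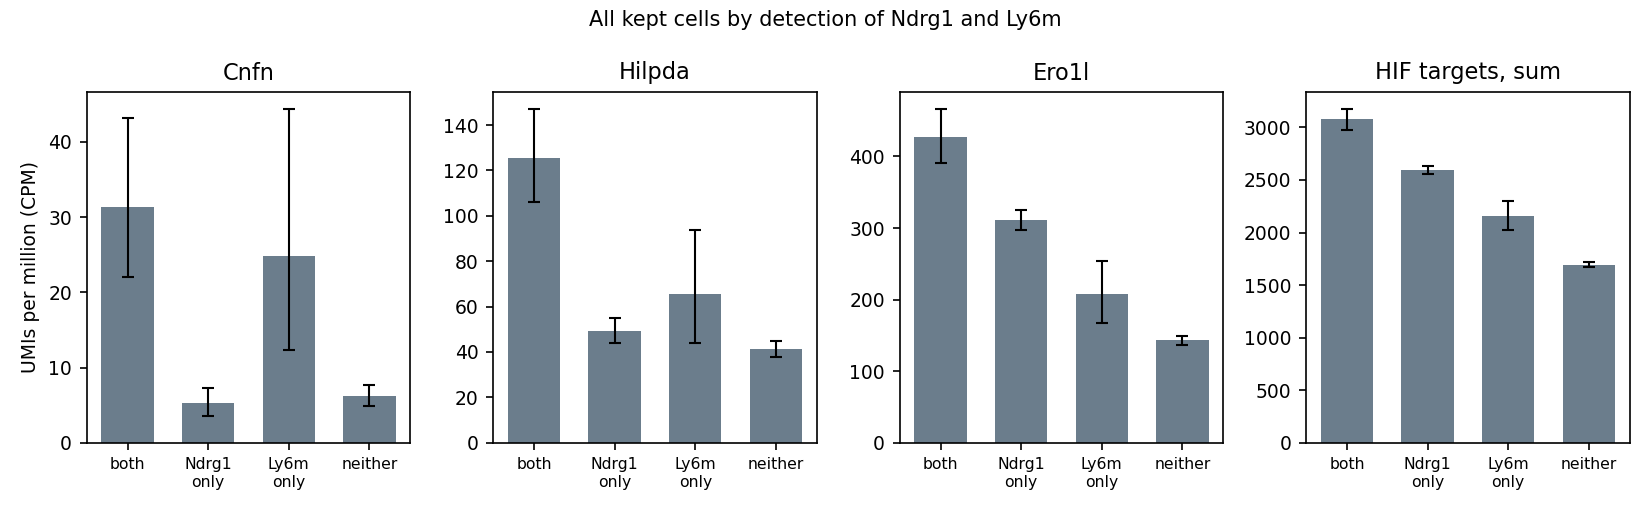
Levels in CPM (vertical axes) of Cnfn, Hilpda, Ero1l and the summed HIF targets in all kept cells, grouped by detection of Ndrg1 and Ly6m: both (79 cells), Ndrg1 only (468), Ly6m only (47) and neither (1298), with 95% Poisson intervals. Cnfn is high in both groups with Ly6m, while Ero1l and the summed HIF targets are higher with Ndrg1 alone than with Ly6m alone.

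Markers of stratified squamous epithelium were compared between members and the other cells. Of 15 such genes, 3 reached 10 CPM over all kept cells. The small proline-rich protein gene Sprr1a was at 29.0 CPM in members and 28.1 CPM in the others, and Sbsn, for suprabasin, at 24.3 and 23.4 CPM. The keratin gene Krt4 was lower in members, at 272 against 487 CPM, a ratio of 0.558 (0.512 to 0.607). The basal markers Krt5, Krt14 and Trp63 had 0 UMIs in members, and Krt5, Krt6a, Sprr3 and Krtdap had none in any kept cell. Of 14 other Ly6 genes, 5 reached 10 CPM and none was 1.5-fold higher or lower in members (over all genes at 10 CPM, 5.43% were higher and 11.4% lower), with Ly6a at 2312 against 3234 CPM and Ly6d at 2767 against 3143 CPM. The relatives Ndrg2 and Ndrg3 were at ratios of 1.02 and 1.10.

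Genes of the hypoxia response were higher in members. Across 6664 genes at 10 CPM or more, 362 were at least 1.5-fold higher in members than in the other cells (5.43%) and 759 were at least 1.5-fold lower, which is to say at or below 0.667 (11.4%), and the median log2 ratio was -0.02. Of 20 HIF targets outside glycolysis, 18 reached 10 CPM, 13 of these were at least 1.5-fold higher, none was at least 1.5-fold lower, and their median log2 ratio was 0.80, the highest among the lists with a gene at 10 CPM. Summed, the 20 genes were at 3466 CPM in members (3388 to 3546) and 1900 CPM in the others (1880 to 1921), a ratio of 1.82 (1.78 to 1.87). Against the cells with no raised set, where 6.26% of all genes were at least 1.5-fold higher and 8.84% at least 1.5-fold lower, 10 of the 18 were higher and none lower. The list was drawn up with earlier results of these data known.

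The largest ratio in this list was that of Ero1l (ENSMUSG00000021831, chr14:45283087-45318771, reverse strand), the endoplasmic reticulum oxidase that drives disulphide bond formation. Ero1l was at 524 CPM in members (494 to 556) and 177 CPM in the others, a ratio of 2.96 (2.77 to 3.17), and was found in 88.3% and 63.3% of cells. Bnip3 (ENSMUSG00000078566, chr7:138890836-138909519, reverse strand), a receptor for the removal of mitochondria, was at 561 against 252 CPM, a ratio of 2.23 (2.09 to 2.37). Its relative Bnip3l was at 308 against 240 CPM, a ratio of 1.28. The 2 oxygen-sensing prolyl hydroxylase genes of the list were higher, Egln1 at 97.7 against 48.5 CPM and Egln3 at 196 against 113 CPM. So were its 2 collagen prolyl hydroxylase subunit genes, P4ha2 at a ratio of 2.05 and P4ha1 at 1.71. Car9, for the surface carbonic anhydrase that is used as a hypoxia marker, was at 258 against 135 CPM, and Vegfa, for the main blood vessel growth factor, at 68.7 against 37.6 CPM.

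Further members of the list past 1.5-fold were Hilpda (2.22), the mitochondrial protein gene Higd1a (1.84), the MYC antagonist gene Mxi1 (1.76), the mTOR inhibitor gene Ddit4 (1.53) and the adenylate kinase gene Ak4 (1.51). Fam162a, at 536 against 360 CPM, had a ratio of 1.49. Of the 18 genes at 10 CPM, 13 were past 1.5-fold and 17 had a ratio above 1. The exception to the latter was Bhlhe40, a transcriptional repressor and another HIF target, at 46.3 against 55.7 CPM (ratio 0.831, 0.669 to 1.02). Adm and Loxl2 were under 10 CPM and are not counted.

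The RNA of some genes of glucose uptake and glycolysis was also higher. Of 17 such genes at 10 CPM or more, 5 were at least 1.5-fold higher and none was at least 1.5-fold lower, with a median log2 ratio of 0.29. Over all genes at 10 CPM these shares were 5.43% and 11.4%. The 5 were the glycolytic enzyme genes Pgk1 (1693 against 946 CPM, ratio 1.79), Aldoa (2644 against 1649 CPM, 1.60), Gapdh (3720 against 2410 CPM, 1.54) and Gpi1 (1.53), and the glucose transporter gene Slc2a1 (59.9 against 35.3 CPM, 1.70). Aldoa is named by 2 identifiers in the matrix, and the first was used, so reads could be divided between them. The hexokinase genes Hk1 and Hk2 were at ratios of 0.922 and 1.07, and Eno1 at 0.960. All 18 genes of the list together were at 12009 CPM in members (11862 to 12156) and 8156 CPM in the others (ratio 1.47, 1.45 to 1.49).

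**Figure D3:**
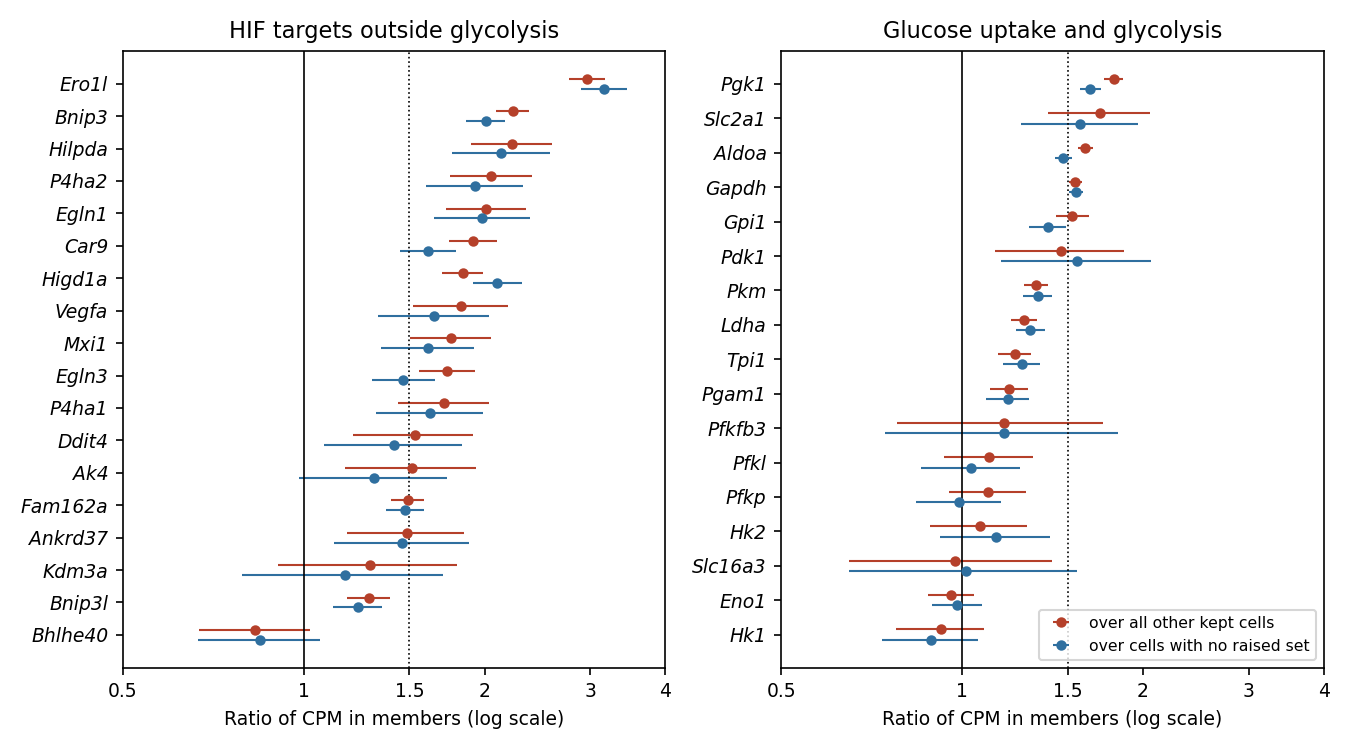
Ratio of CPM in members over all other kept cells (red) and over the 523 cells with no raised set (blue), on a log axis with 95% intervals, for the 18 HIF targets and 17 glycolysis genes at 10 CPM or more. The solid line marks a ratio of 1 and the dotted line 1.5; 13 HIF targets and 5 glycolysis genes lie past 1.5 against all other cells, and Bhlhe40 lies at 0.831.

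The difference lay in most members and not in a few. After each cell was thinned to 3000 gene UMIs, which kept 198 members and 1637 other cells and left out 7 and 50 shallower ones, the HIF targets together had a median of 10 UMIs in members (quartiles 7 and 13.8, range 0 to 37). Other cells had a median of 5 (quartiles 3 and 8, range 0 to 24). Of the members, 86.9% were above the median of the other cells, while the ranges overlapped. For glycolysis the medians were 34 and 23 UMIs per cell.

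Levels were also higher from each band of z to the next over all kept cells. In the 1319 cells with z below 0, the 264 from 0 to 1, the 184 from 1 to 2 and the 125 at 2 or more, the HIF targets summed to 1702, 2249, 3032 and 3807 CPM. Glycolysis ran from 7479 through 9436 and 11503 to 12503 CPM, and Ero1l from 144 through 230.3 and 382 to 643 CPM. Cnfn had no such order: it was at 5.84, 8.93, 6.21 and 26.9 CPM, highest in the top band. The member with 14 Cnfn UMIs lay in that band, which was at 15.4 CPM without it (9.11 to 24.3). The band from 0 to 1 was the deepest, with a median of 14818 gene UMIs against 7742 to 8861 in the others.

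**Figure D4:**
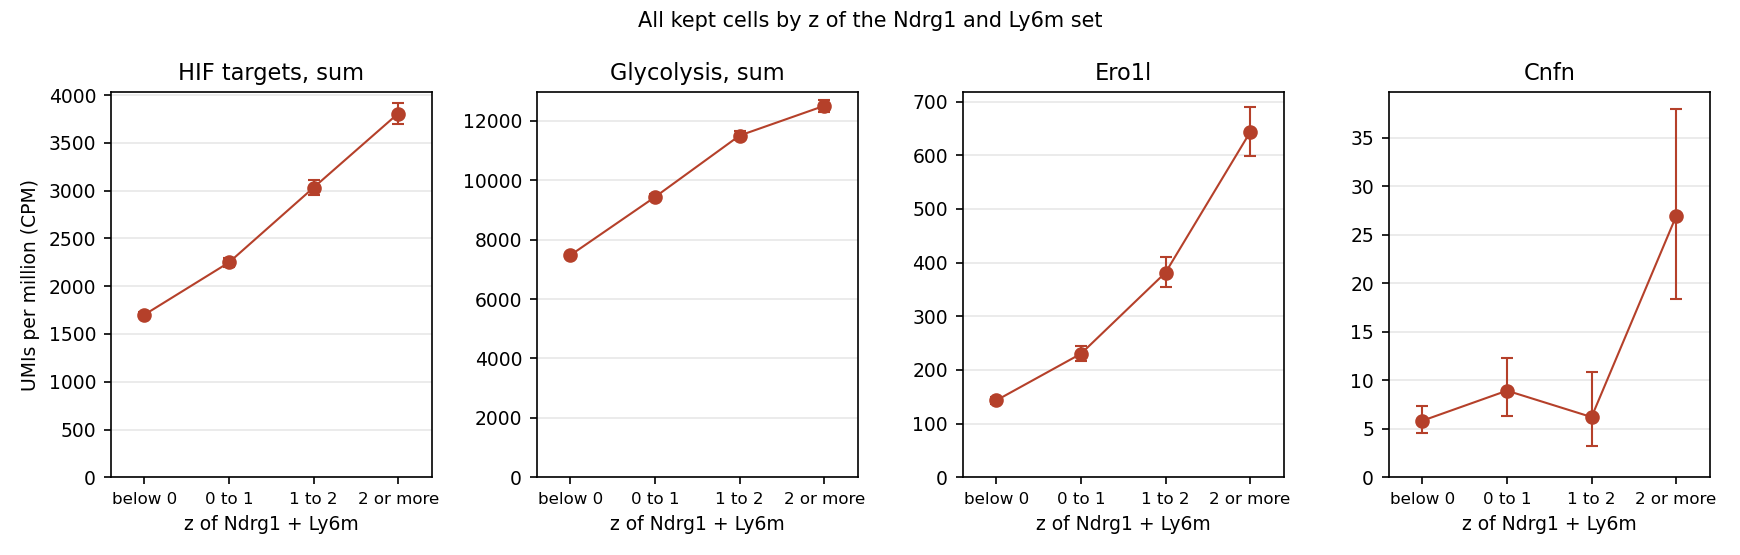
Summed HIF targets, summed glycolysis genes, Ero1l and Cnfn in CPM (vertical axes) in bands of the z of Ndrg1 and Ly6m over all 1892 kept cells (horizontal axes), with 95% Poisson intervals. The first 3 increase from band to band, and Cnfn is at 26.9 CPM in the highest band, or 15.4 CPM without 1 cell.

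The groups of members differed in the same readouts. Members with Ndrg1 alone had HIF targets at 3553 CPM (3453 to 3655) and those with both genes 3437 CPM (3300 to 3579), while the 15 members with Ly6m alone had 2436 CPM (2132 to 2770). Ero1l followed this order at 558, 496 and 242 CPM. Members with a single UMI of the pair had HIF targets at 2871 CPM (2623 to 3137), those with 2 UMIs 3384 CPM, and those with 3 or more 3546 CPM (3455 to 3639). The 389 other cells with a UMI of the pair were at 2337 CPM (2298 to 2377), within the interval of the members with Ly6m alone and below the other groups of members, and the 1298 with no UMI were at 1692 CPM.

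The UMIs that chose the members were also kept apart from those that gave the levels. Each UMI was put at random into 1 of 2 parts, members were chosen on the first, and levels were read from the second, which gave 224 members, of which 149 were among the 205. In the second part Ndrg1 was 4.44-fold (3.72 to 5.28) and Ly6m 21.6-fold higher (15.4 to 30.7), against 9.26-fold and 31.6-fold when the same UMIs served both steps. The ratio was 2.77 for Ero1l (2.52 to 3.05), 1.99 for Bnip3 (1.81 to 2.17) and 3.05 for Cnfn (1.84 to 4.94). The cells with the most Cnfn UMIs were not left out of this split, and no split value without them was computed.

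In the HIF and glycolysis lists the sums nearest to those of members were in the cells chosen by Mt1 and Mt2, genes of the metal-binding metallothioneins. By the z values of the rule, which are a description, this set was the second highest in 79 members, and 45 members also had a z of at least 1 in it. The 148 cells of that class had glycolysis at 12368 CPM (12177 to 12560), above the 12009 CPM of members, and Bnip3 at 552 CPM (512 to 594), within the interval of the members' 561 CPM (529 to 593). HIF targets were lower there, at 2975 CPM (2882 to 3071) against 3466 CPM, as was Ero1l at 389 CPM. Of the 18 HIF targets at 10 CPM or more, 15 had their highest level of the 9 classes in members. Of the 17 glycolysis genes, 4 did. The same share over all genes was not computed, so these counts have no background. Some leads over the Mt1 and Mt2 class were small, as for Fam162a (536.3 against 530.9 CPM) and Mxi1 (94.9 against 88.5 CPM). Others were larger, as for Egln1 (97.7 against 75.4 CPM). The lowest sums of both lists were in the cells chosen by Scgb3a1 and Cyp2f2, at 1213 and 5919 CPM.

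By the z values of the rule, which are a description, many members were also raised in another set. In 105 of 205 (51.2%) another set also reached a z of 1, and in 58 (28.3%) the next set was within 0.5. The same share was not computed for the other cells, and a z of 1 can rest on few UMIs. In the Cyba and Gsta set 22 members reached it, with 0 UMIs of Cyba and Gsta2 in members. Gsta1 was at 28.5 CPM in members against 1720 CPM in that class. Among the 15 nearest neighbours of a member, in 30 principal components of 2000 variable genes without the rule genes, a mean of 31.1% were members. Their share of all kept cells was 10.8%. A further 29.2% of the neighbours were cells with no raised set and 17.3% were of the Mt1 and Mt2 class. At least 8 of the neighbours were members for 36 members and for 33 of the other cells, and none was for 13 members. Members were thus 2.87 times as frequent among their own neighbours as among all kept cells. This was no trait of the members alone: the same figure was 3.52 for the Mt1 and Mt2 class and ran from 1.24 to 7.54 over the other classes.

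Promoter sequence is shown for 6 of the genes that were higher together. The core of a HIF site is ACGTG or GCGTG, and both were searched on both strands (CACGT and CACGC as reverse complements, which can overlap them) from 250 bases before to 50 after the RefSeq start site on GRCm38.p6. At least 1 of these lay in the promoters of 11 of the 13 higher HIF targets (84.6%) and 3 of the 5 higher glycolysis genes. Among genes with a promoter entry, it also lay in 67.5% of those at 10 CPM (3618 of 5358) and 70.6% of those at least 1.5-fold higher (197 of 279). Of the 27025 promoters searched, 43.8% had it. ACGTG or its complement alone lay in 9 of the 13 HIF targets (69.2%). With the same denominators, it lay in 27.96% of genes at 10 CPM, 34.1% of the higher genes and 19.7% of all promoters. A match is a description of these letters and not a site. Capitals below mark 1 match in each stretch, and further matches within a stretch, as in Bnip3 and P4ha2, stay in lower case. Each stretch reads 5′ to 3′ on the gene's strand, and Ero1a is RefSeq's name for Ero1l.
Ero1a, chr14:45318618-45318648, reverse strand: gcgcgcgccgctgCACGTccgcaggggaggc
Bnip3, chr7:138909596-138909626, reverse strand: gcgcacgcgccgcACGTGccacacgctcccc
P4ha2, chr11:54100833-54100863, forward strand: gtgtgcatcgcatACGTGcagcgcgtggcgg
Egln3, chr12:54204086-54204116, reverse strand: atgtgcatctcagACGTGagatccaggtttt
Slc2a1, chr4:119108696-119108726, forward strand: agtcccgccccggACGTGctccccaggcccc
Pgk1, chrX:106186937-106186967, forward strand: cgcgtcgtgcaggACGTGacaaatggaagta

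Outside the lists, the highest ratio was that of 2610528A11Rik (ENSMUSG00000096001, chr14:37102140-37114022), a protein-coding gene found in 38.0% of members and 12.7% of the other cells. It was at 79.0 CPM in members (67.6 to 91.9) and 21.9 CPM in the others, a ratio of 3.62 (3.001 to 4.34), and at 53.9 CPM in the Mt1 and Mt2 class. Next came the long noncoding RNA Wincr1 (3.30), the antisense transcript Gm15283 (3.20), the lysosomal membrane protein gene Gpr137b (3.02) and Ahnak2 (2.999). Lpin2, a phosphatidate phosphatase gene of lipid synthesis, followed at 50.5 against 17.9 CPM (2.82). Strand use in the counting is not given in the sources used here, so reads of Gm15283 cannot be told from those of a gene on the other strand.

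The 30 highest ratios ended at 2.15, and 3 of them were those of the HIF targets Ero1l, Bnip3 and Hilpda. They included the semaphorin gene Sema3e (2.69), the exonuclease gene Isg20 (2.58), the fibronectin gene Fn1 (2.55), the kinase gene Jak3 (2.43), the MYC-network repressor gene Mxd1 (2.32), the cyclin gene Ccng2 (2.29), the homeobox gene Meis2 (2.16), the sphingolipid regulator gene Ormdl3 (2.15) and the fatty acid receptor gene Pparg (2.15).

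Over all kept cells, the value of Ndrg1 and Ly6m went most with 10 genes of which 5 are on the HIF or glycolysis lists. Those lists hold 18 and 17 of the 6664 genes at 10 CPM. The highest Pearson correlations across the 1892 cells, which share 1 library and differ in depth, were 0.40 for the translation initiation factor gene Eif1, 0.40 for Ero1l, 0.37 for Bnip3, 0.34 for Aldoa, 0.33 for Pgk1 and 0.31 for Gapdh. Eif1 was at 3955 CPM in members and 2279 CPM in the others, a ratio of 1.74. Then came the noncoding RNA Epb41l4aos (0.30), 1110038B12Rik (0.29), the membrane-shaping protein gene Sh3glb1 (0.27) and the galectin gene Lgals3 (0.27), with ratios of 2.05, 1.91, 1.97 and 1.65. Differences in abundance were not allowed for. The gene with the highest ratio, 2610528A11Rik, at 27.9 CPM over all kept cells, had a correlation of 0.25, and Cnfn, at 7.75 CPM, one of 0.09.

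Smaller groups held single genes that were higher. Of the 4 desmosome genes at 10 CPM, the plaque protein gene Dsp was at 115 against 66.4 CPM (ratio 1.73) and the cadherin gene Dsg2 at 64.1 against 41.8 CPM (1.53). Of 8 S100 genes at 10 CPM, S100a14 was higher, at 275 against 140 CPM (1.97), and S100a10 lower, at 967 against 1482 CPM (0.652). Over all genes these shares were 5.43% and 11.4%. Against cells with no raised set, 3 S100 genes were higher (S100a14, S100a16 and S100a4) and none lower, with S100a10 at 0.669. Of 10 genes of the ATF4 response to amino acid and folding stress, Atf4 itself (1.504) and the stress factor gene Ddit3 (1.82) were higher. The serine synthesis gene Phgdh (0.490), the amino acid carrier subunit gene Slc3a2 (0.584) and Stc2 (0.473) of the same list were lower. Ddit3 also has 2 identifiers, of which the first was used. Of 13 genes of the unfolded protein response none was higher, and Pdia6 was lower (0.615). Of 12 lipid droplet and fatty acid genes at 10 CPM, the desaturase gene Scd1 was higher (1.75) and 3 were lower, Fabp5, Fasn (0.648) and Acsl4 (0.595), with the list at a ratio of 0.628. Against cells with no raised set, Dsg2 (1.497), Atf4 (1.475) and Scd1 (1.495) were just under 1.5-fold, while Dsp (1.54) and Ddit3 (1.75) were past it.

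Several genes were lower in members than in the other cells and also lower than in cells with no raised set. The fatty acid binding protein gene Fabp5 was at 364 against 1041 CPM (ratio 0.350, and 0.387 against cells with no raised set). Anxa1, for annexin A1, was at 304 against 701 CPM (0.433 and 0.420). The matrix protease gene Mmp7 was at 15.9 CPM in members, 116 CPM in the other cells and 126 CPM in cells with no raised set, and Khdc1a at 26.7, 163 and 154 CPM. Both had their highest level in the cells chosen by Scgb3a1 and Cyp2f2, at 205 and 341 CPM, and their lowest of the 9 classes in members. Sectm1b and the glycosyltransferase gene Mgat4c were likewise lowest in members, at ratios of 0.139 and 0.143. Nav3 had a ratio of 0.126, at 4.21 CPM in members (1.92 to 7.99), close to its 3.85 CPM in the Mt1 and Mt2 class (1.25 to 8.98).

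Other lists held lower genes at both comparisons. The claudin gene Cldn2 was at 9.82 against 32.7 CPM (0.301) and the junction scaffold gene Tjp1 at 119 against 184 CPM (0.646), while the other 8 tight junction genes at 10 CPM were within 1.5-fold. The epithelial transcription factor gene Ehf was at 0.473, and the antioxidant enzyme gene Gpx2 at 0.381 against all other cells and 0.523 against cells with no raised set. Of the 11 antioxidant (NRF2 target) genes at 10 CPM, 3 were lower and none higher against all other cells, and 2 were lower (Gpx2 and G6pdx) and 2 higher (Hmox1, 1.53, and Cbr3, 1.59) against cells with no raised set. Of 7 gastric progenitor genes at 10 CPM, 4 were lower against all other cells (11.4% of all genes were), and 2 of these, Lrig1 (0.540) and Sox9 (0.621), also against cells with no raised set (8.84% of all genes). None was higher, and the list was at ratios of 0.843 and 0.937. The sterol synthesis genes Hmgcs1 (0.616) and Idi1 (0.522) were also lower. No Notch or Wnt gene at 10 CPM passed 1.5-fold against all other cells, with list ratios of 0.719 and 0.696. Against cells with no raised set the ratios were 0.681 and 0.659, and 1 gene of each list was lower, the Notch ligand gene Jag2 (0.646) and Rnf43 (0.598), whose product removes Wnt receptors.

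Mitotic and surface mucous cell genes were lower against all other cells but not against cells with no raised set. All 8 genes of mitosis outside the rule at 10 CPM were at least 1.5-fold lower in members, with a sum of 99.6 against 280 CPM (ratio 0.356). Over all genes 11.4% were this much lower against the other cells, which is also the share to set beside the S phase and pit cell counts below. The other cells include the 134 chosen on mitotic genes, where the sum was 1543 CPM, and against cells with no raised set, at 91.2 CPM, the ratio was 1.09, with none of the 8 genes lower and 3 higher (Cdk1, Ccnb1 and Ccnb2, cyclin and kinase genes of entry into mitosis, where the share over all genes was 6.26%). Of 6 S phase genes at 10 CPM, 3 were lower (Tyms, Hells and Dut), and the list was at a ratio of 0.682 against all other cells and 1.10 against cells with no raised set. By the rule, no cell with no raised set had a z of 1 in the mitotic or replication set, while 11 and 16 members did. The mitotic and S phase ratios over those cells are thus partly set by the rule. After thinning, the shares of cells with a UMI of the mitotic list were close, at 25.8% of members, 27.0% of the other cells and 20.9% of cells with no raised set, while the highest count in a cell was 6 in members and 24 in the other cells. Of the 4 surface mucous (pit) cell genes at 10 CPM, the trefoil factor gene Tff1 (0.268) and the gastrokine genes Gkn1 (0.306) and Gkn2 (0.440) were lower, but their list was at 277 CPM in members and 265 CPM in cells with no raised set. The 122 cells chosen by Cyba, Gsta1 and Gsta2 held 5294 CPM of it. The ratio of the pit list over all other cells was 0.444, and it was 0.833 without 50 other cells that held UMIs of Y-linked genes and 0.705 as a mean over cells.

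Markers of several other cell types were at or near 0 in members. Fibroblast and enteroendocrine genes had 0 UMIs, which with 3 counts allowed is up to 1.40 CPM. Endothelial genes were at 0.468 CPM, chief cell genes at 1.40 CPM, and tuft cell genes at 2.81 CPM. The immune list was at 14.5 CPM in members, 13.9 CPM in the others and 5.99 CPM in cells with no raised set (ratio to these 2.42, 1.44 to 4.06). In members it consisted of 31 UMIs of Cd68, a lysosomal protein gene, and the white blood cell genes Ptprc, Cd3e, Cd79a, Adgre1 and Lyz2 had 0. Some gastric and intestinal lists were not near 0: the parietal list was at 32.7 against 41.7 CPM, the mucous neck list at 14.03 against 48.5 CPM and the intestinal list at 29.5 against 35.5 CPM. Simple epithelial keratins were level, at 4000 against 3964 CPM. Ribosomal protein genes took a median of 34.9% of UMIs in members and in the other cells alike.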

How the data were processed

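One library of mouse gastric organoid cells was analysed. The authors deposited whole-number UMI counts per gene and multiplexing tag for each barcode, not normalized and written by Cell Ranger 6.1.2, per the submitters' processing notes. Reads were mapped to the mouse build GRCm38, per the labels. The annotation counted against is not given in the sources used here. From the counts, CPM were computed over summed cells, with exact Poisson intervals for levels, Clopper-Pearson intervals for shares and exact conditional binomial intervals for ratios. Genes with at least 10 CPM over all kept cells were compared, with 1.5-fold as the call. Nearest neighbours used 2000 variable genes, 30 components and 15 neighbours. The steps were tested on simulated data. Tools were Python 3.11.15, NumPy 2.4.6, SciPy 1.17.1, scikit-learn 1.9.0 and scanpy 1.11.5, whose Scrublet marked 12 of 1892 cells as doublets (0.634%), none of them a member. Doublets were kept in the values given and removed in an alternative.

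The members and the 39 gene lists were chosen with earlier results of these data known. Genes named are the rule genes, Cnfn, the 30 highest and 15 lowest ratios, the 10 highest correlations, and within a list its genes past 1.5-fold and the most abundant ones. Genes described outside that rule (such as Fam162a, Hk1, Hk2, Eno1 and Bhlhe40) were chosen after their values were seen. Some genes that the rule selects are not reported here. Gene coordinates are those of GENCODE M21, and promoter sequences are RefSeq's. Alternatives for filters, thresholds, depth, scaling, tags and comparison cells were computed. The split of UMIs, the minimum of 2 UMIs, the omission of cells with the most Cnfn UMIs and the omission of cells with Y-linked UMIs were added after seeing the data.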

Additional observations from a re-analysis of the deposited data

Results flagged for a closer look

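The counts of the multiplexing tags served to recompute some ratios within each tag but were not themselves compared in the report, and the labels do not say what each tag stands for. CMO302 was the highest tag in 49.3% of members (101 of 205; exact interval 42.2% to 56.3%) and in 43.2% of the other kept cells (40.8% to 45.6%), and CMO301 was the highest in the rest. The share is given because it is a signal in data outside the main measurement, and the intervals overlap.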

How the results depend on the processing

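In all, 19 alternatives were computed, each for the results it bears on. Of the 30 genes with the highest ratios, Kctd14 and Phospho2 were at 0.923 and 0.810 after thinning to 3000 UMIs. The Cnfn ratio was 1.47 without the member with the most Cnfn UMIs, and 1.76 (1.05 to 2.84) when the other cell with the most was left out too. No paired analysis was possible because the data hold a single library.

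Members numbered 104 with CMO301 and 101 with CMO302. Their share was 7.93% at a z of at least 1.5, 12.4% at 0.5 and 7.77% with a margin of 0.5 to the next set. Genes at least 1.5-fold higher numbered 571 after thinning, 203 at a minimum of 20 CPM and 541 with totals free of ribosomal protein and mitochondrial genes; genes at least 1.5-fold lower numbered 1252 at a minimum of 5 CPM, 441 at 20 CPM and 1058 with those totals. The summed HIF ratio was 1.91 at z 1.5, 1.75 at z 0.5, 1.65 after thinning, 1.75 against cells with no raised set and 1.73 with members chosen on a separate part of the UMIs. The glycolysis ratio was 1.495 (z 1.5), 1.44 (z 0.5), 1.42 (thinned), 1.42 (margin), 1.41 (CMO301), 1.54 (CMO302), 1.49 (totals), 1.43 (no raised set) and 1.42 (separate UMIs). The G2/M ratio was 0.454 after thinning, 0.441 as a mean over cells and 1.09 against cells with no raised set. The pit ratio was 0.624 (thinned), 0.365 (CMO301), 0.570 (CMO302), 0.705 (mean over cells), 1.04 (no raised set) and 0.833 (without cells with Y-linked UMIs). Gm21818 was at 2.92 with at least 1000 genes, 3.03 in CMO301 and 1.06 against cells with no raised set, where Sp110 was at 1.06, Gm3776 at 1.59 and Cenpf at 1.33. The causes were not tested, other than that cells with no raised set hold no mitotic class.

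Precision is set by the 2138728 UMIs of the members, so that genes near 10 CPM rest on few UMIs there, as single cells do on few UMIs of the pair.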

Other observations

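A few of the lowest ratios came from a small number of cells outside the members. B020031M17Rik was at 1.40 CPM in members and 104 CPM in the other cells (ratio 0.0135), but it was found in 31 of the other cells (1.84%), of which 1, chosen by Psca and Prss22, held 1810 UMIs. It was found in 1.46% of members. Gm21818 (0.0242), Gm20767 (0.0361) and Sp110 (0.0749) were likewise highest in the Psca and Prss22 class, at 324, 106 and 191 CPM, and each was found in under 2% of the other cells.

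None of the 205 members, and 50 of the 1687 other cells, held a UMI of Kdm5d, Eif2s3y, Uty or Ddx3y, genes of the Y chromosome. For cells of this kind, 0 of 205 allows a share with such a UMI of up to 1.46% (3 counts), which is no limit on cells that carry or express these genes. Xist was found in 72.7% of members and 77.2% of the other cells. With those 50 cells left out, the ratio of the summed pit cell genes was 0.833 in place of 0.444, and that of the HIF targets 1.80 in place of 1.82.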
